A study of Mus musculus with 12 samples.

Results

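The genes followed here encode collagens and other matrix proteins, contractile proteins and further markers of fibroblasts and of the mouse embryonic fibroblast (MEF) layers on which ES cells are grown. They were chosen by symbol in the platform annotation from 43 names, which stand for 41 genes because *Ccn1* and *Ccn2* are also listed under their older symbols *Cyr61* and *Ctgf*. Of the 41 genes, 39 were measured among 19938 measured genes in all. *Fbn1* was not analysed here, and the probe set of *Loxl2* lists several genes and was therefore not given a name. *Lum* and *Postn* lay below the minimum level of 0.1 of the array mean, which left 37 members for the tests among 15309 genes tested.

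Fibroblasts secrete fibrillar collagens, which are trimmed outside the cell, joined into fibrils and crosslinked by lysyl oxidases. Spread or stretched cells of many types, fibroblasts and early differentiating ES cells among them, also build actin bundles and express contractile and matricellular genes under the control of serum response factor (SRF) and of TEAD factors with YAP. A matrix gene such as *Col1a1* or *Lum* thus marks a fibroblast more closely than a contractile or cytoskeletal gene such as *Tagln* or *Vim*, which other cells use as well.

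RNA came from undifferentiated mouse ES cells of 2 lines, PGK12.1, which is female and was derived from a 129 female mated with a (129 X PGK)F1 male, and WD44, which is male and was derived from BL6 blastocysts. In each experiment, 1 array held cells given siRNAs without a target (control) and 1 array held cells given a pool of siRNAs against *Kdm6a*, an X-linked gene for a histone H3K27 demethylase. There were 4 experiments in PGK12.1 and 2 in WD44, 12 Affymetrix Mouse Gene 1.0 ST arrays in all. Experiments 1 and 2 of PGK12.1 used double RNAi, with 100 pmol of siRNAs for 48 h and then 400 pmol for 24 h. The other experiments, 3 and 4 of PGK12.1 and both of WD44, used single RNAi with 100 pmol for 48 h. All groups shared growth on MEF feeders with LIF, the same range of passages and depletion of the feeders by attachment to gelatin before transfection, so every array could hold RNA of residual feeders. Sex, strain and line cannot be told apart, nor can double RNAi from its dose, time and set of arrays. Line is also tied in part to the set of arrays, since only PGK12.1 experiment 4 had array medians near those of WD44. A difference between the control arrays of the lines thus cannot be fully told apart from a difference between sets of arrays. Whether the experiments of a line began from separate cultures is not stated beyond their numbering, so p-values may measure a spread that is partly technical.

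The arrays were not on 1 scale. Medians of all probe sets, as log2 values, were 6.15 to 6.21 for the first 2 PGK12.1 experiments, 6.47 and 6.48 for experiment 3, 8.2 and 8.21 for experiment 4, and 8.03 to 8.08 for WD44. Changes were therefore taken within an experiment, and control arrays were compared by the percentile rank of a gene among all measured genes of its own array, from 0 for the lowest to 100 for the highest. *Kdm6a* was lower on the RNAi array in all 6 experiments, by log2 changes of -1.27, -1.50, -1.42 and -0.96 in PGK12.1 (adjusted p = 0.000293 from limma) and of -0.94 and -0.92 in WD44 (adjusted p = 0.13 from limma). The ES cell markers *Pou5f1* and *Nanog*, which encode core factors of pluripotency, ranked at 98.6 or higher and 97.8 or higher on each of the 6 control arrays.

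Defining feeder markers lay at low to middle ranks on every control array. Their summed level overlapped between the lines, while the median rank of the 7 that were tested was lower in WD44 (38.1 and 38.5) than in PGK12.1 (52.2, 48.6, 49.7 and 46.2). The list held 10 genes, the fibroblast collagens *Col1a1*, *Col1a2*, *Col3a1* and *Col6a3*, the matrix genes *Fbn1*, *Lum* and *Postn*, the surface markers *Thy1* and *Pdgfrb* and the limb and craniofacial mesenchyme factor *Prrx1*. The median rank was that of *Col3a1* on each control except that of PGK12.1 experiment 4, so it does not show a shift of the whole list. By limma, *Col6a3* ranked higher in PGK12.1 and *Prrx1* higher in WD44, and the other tested markers did not pass. Over all genes tested, 8.82% were called higher in PGK12.1 and 9.11% higher in WD44. Summed over the 9 measured markers, the level was 1.94, 1.71, 1.48 and 2.27 times the array mean on the controls of PGK12.1 experiments 1 to 4 and 1.84 and 1.91 on those of WD44, so the WD44 values lay inside the range of PGK12.1. *Lum*, a keratan sulfate proteoglycan of fibroblast matrix, ranked between 2.4 and 5.2 on the 6 controls, and *Postn*, a matricellular protein of stroma and periosteum, between 8.1 and 17.5. No marker was listed at 0, since RMA gives every probe set a value, and the files hold no call of presence. Fewer feeder cells and less of these RNAs per cell cannot be told apart in bulk RNA.

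Of the 37 tested members, 19 differed in percentile rank between the control arrays of the lines by limma, 2 of them higher in PGK12.1 and 17 higher in WD44. Over all genes tested, 17.9% were called, 8.82% higher in PGK12.1 and 9.11% higher in WD44. In 20 members both WD44 controls ranked above all 4 PGK12.1 controls, against 24.6% of all genes, and in 7 members all 4 PGK12.1 controls ranked above both of WD44, against 26.5%. The median rank of the tested members was 53.6, 49.3, 55.0 and 53.8 on the PGK12.1 controls and 60.9 and 60.4 on the WD44 controls. The 17 members ranked higher in WD44 were the 5 contractile genes, the matricellular genes *Thbs1*, *Ccn1* and *Ccn2*, and *Col12a1*, *Lox*, *Bgn*, *Timp3*, *Mmp2*, *Prrx1*, *S100a4*, *Cav1* and *Capg*. The genes of collagens I, III and V did not pass.

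**Figure D1:**
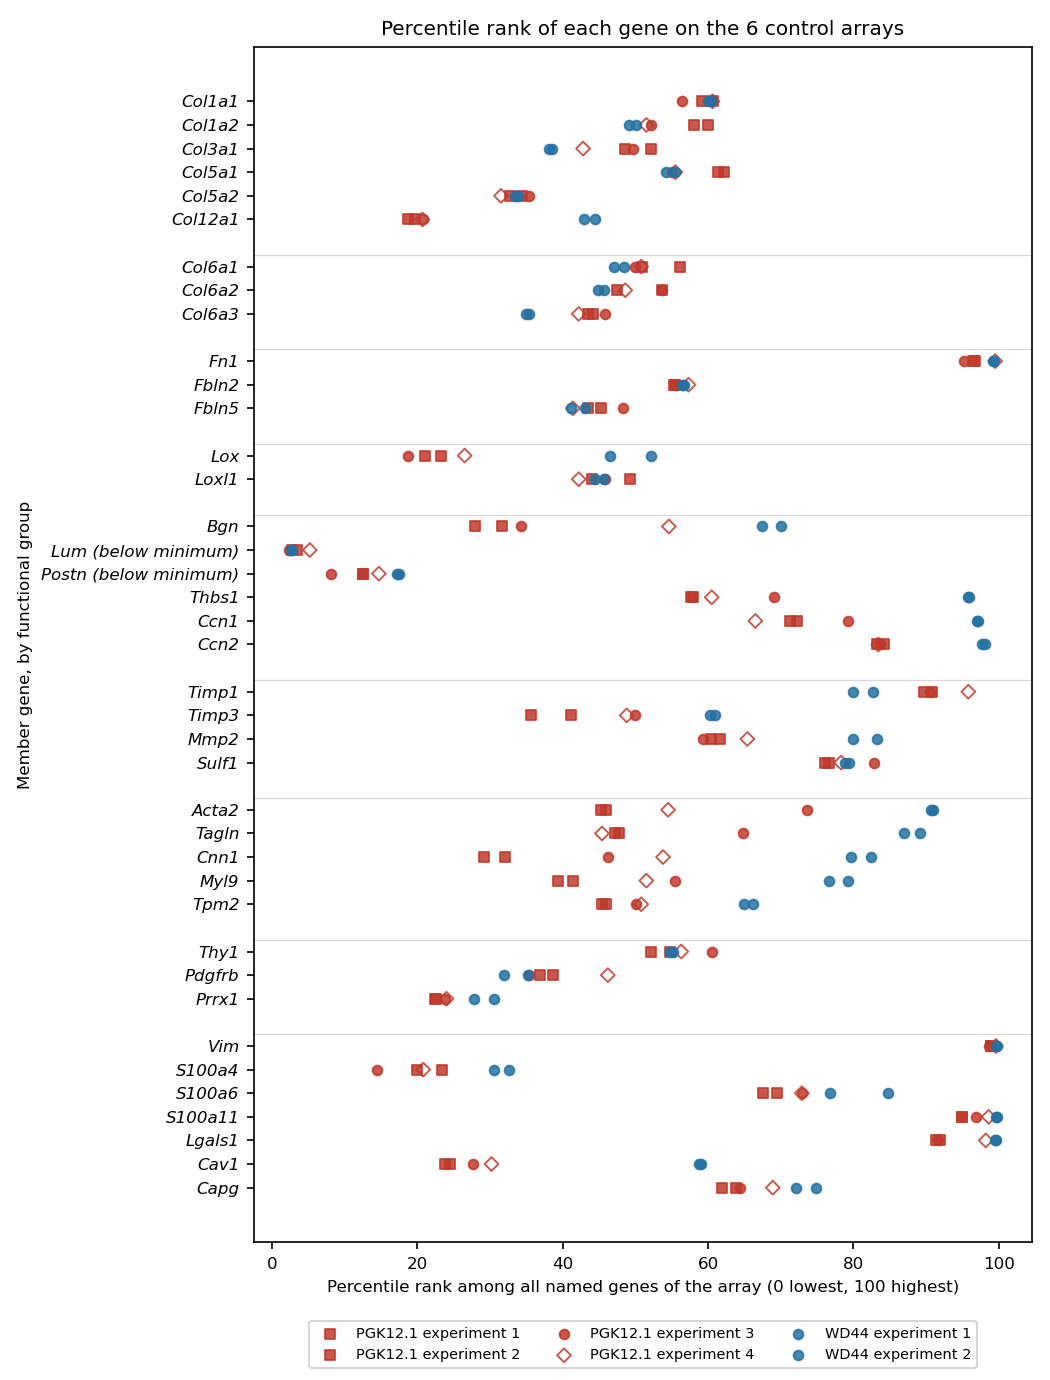
Percentile rank of the 39 measured genes (x axis, 0 to 100) on the control arrays, 1 row per gene in functional groups separated by lines, with red squares for PGK12.1 experiments 1 and 2, a red disc for experiment 3, an open diamond for experiment 4 and blue discs for WD44. The contractile genes and *Thbs1*, *Ccn1* and *Ccn2* lie far to the right in WD44, while *Col1a1* lies between 56.4 and 60.7 on all 6 arrays.

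All 5 contractile genes ranked higher in WD44, with no overlap between the lines. *Cnn1*, which encodes the actin-binding protein calponin 1, ranked at 29.2, 32.1, 46.2 and 53.8 on the PGK12.1 controls and at 79.7 and 82.4 on those of WD44, a difference of 40.7 (standard error 7.26, adjusted p = 0.0176 from limma). *Tagln*, the gene of the actin-bundling protein transgelin, had PGK12.1 ranks of 47.2, 47.7, 64.8 and 45.4 and WD44 ranks of 89.1 and 86.9, a difference of 36.7 (standard error 5.70, adjusted p = 0.0123 from limma). *Acta2*, smooth muscle actin, had PGK12.1 ranks of 46.0, 45.3, 73.6 and 54.5 and WD44 ranks of 91.0 and 90.6, a difference of 35.9 (standard error 8.17, adjusted p = 0.0341 from limma). The PGK12.1 controls themselves differed widely in these genes, experiment 3 being highest for *Tagln* and *Acta2* and experiment 4 for *Cnn1*. *Myl9*, a regulatory light chain of myosin, was 31.0 higher in WD44 and *Tpm2*, a tropomyosin, 17.5 higher (adjusted p = 0.0132 and 0.00561 from limma). When either WD44 control was left out, so that the other was taken to vary like the PGK12.1 arrays, none of these 5 genes passed, with differences of 16.8 to 42.1 in the same direction. *Acta2* also lost its call without PGK12.1 experiment 1 (difference 33.0, adjusted p = 0.0784 from limma) or experiment 2 (32.8, adjusted p = 0.0814).

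The 4 tested proteoglycan and matricellular members ranked higher in WD44 as well. *Thbs1*, which encodes thrombospondin 1, ranked at 57.6, 57.9, 69.1 and 60.5 on the PGK12.1 controls and at 95.8 and 95.9 on those of WD44, a difference of 34.6 (standard error 3.47, adjusted p = 0.00355 from limma). *Ccn1*, a secreted ligand of integrins and a well-known target of YAP, stood at 71.3, 72.2, 79.3 and 66.5 on the PGK12.1 controls and at 97.2 and 97.0 on those of WD44, a difference of 24.7 (adjusted p = 0.00892 from limma). *Ccn2*, of the same family, kept within 83.2 and 84.2 on the 4 PGK12.1 controls and reached 97.7 and 98.1 in WD44 (difference 14.3, adjusted p = 0.002 from limma). *Bgn*, the small proteoglycan biglycan, stood at 27.9, 31.6, 34.3 and 54.6 on the PGK12.1 controls and at 67.4 and 70.0 on those of WD44, so that experiment 4 alone stood near WD44 (difference 31.6, adjusted p = 0.0377 from limma). Without PGK12.1 experiment 1, 2 or 3 the difference of *Bgn* was 28.5, 29.7 and 30.6 and lost its call (adjusted p = 0.081, 0.0949 and 0.0853 from limma). Without WD44 control 1 or 2, *Thbs1* (adjusted p = 0.0545 and 0.0586), *Ccn1* (0.0978 and 0.103) and *Bgn* (0.201 and 0.232) lost their calls, and *Ccn2* did so without control 2 (0.0545).

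Promoter sequences of *Myl9* and *Ccn1* are shown as examples of a contractile and a matricellular gene that ranked higher in WD44. They are RefSeq sequences of GRCm38.p6, 5′ to 3′ on the strand of the gene and ending at the base before the gene's listed extent, chr2:156775214-156775407 (plus strand) for *Myl9* and chr3:145649986-145650235 (minus strand) for *Ccn1*. Capitals mark matches on either strand to the CArG box of SRF, the TEAD core GGAATG, the AP-1 site TGAGTCA and the GC box GGGCGG.

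Myl9: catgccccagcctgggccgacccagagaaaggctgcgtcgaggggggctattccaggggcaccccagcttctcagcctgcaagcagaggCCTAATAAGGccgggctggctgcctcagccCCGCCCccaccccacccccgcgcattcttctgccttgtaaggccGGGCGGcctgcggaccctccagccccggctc

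Ccn1: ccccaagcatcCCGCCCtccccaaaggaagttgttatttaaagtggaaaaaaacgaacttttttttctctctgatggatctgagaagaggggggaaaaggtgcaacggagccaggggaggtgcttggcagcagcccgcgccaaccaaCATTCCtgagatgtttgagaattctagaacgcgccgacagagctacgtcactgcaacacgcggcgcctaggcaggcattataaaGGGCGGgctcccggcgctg

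The *Myl9* stretch held a CArG box from 105 to 96 bases before the gene and 2 GC boxes, and the *Ccn1* stretch held a TEAD core from 103 to 98 bases before it and 2 GC boxes. Among 32851 promoters of 250 bases, 1.47% held a CArG box, 12.6% a TEAD core, 4.46% an AP-1 site and 32.7% a GC box. Of the 41 member genes, 25 had a promoter in the table, with 29 listed promoters in all. Of these, 1 held a CArG box, that of *Myl9*, 2 held an AP-1 site and 15 a GC box. The TEAD core was found in 6, those of *Acta2*, *Ccn1*, *Col3a1*, *Col6a2*, *Prrx1* and *Timp1*. Of these, *Acta2*, *Ccn1* and *Prrx1* ranked higher on the WD44 controls and *Col3a1*, *Col6a2* and *Timp1* on the PGK12.1 controls. The members with no promoter in the table were *Ccn2*, *Col12a1*, *Col1a1*, *Col5a2*, *Fn1*, *Lgals1*, *Lox*, *Loxl1*, *Loxl2*, *Lum*, *Mmp2*, *Pdgfrb*, *Sulf1*, *Tagln*, *Thbs1* and *Thy1*. These matches are a description of the letters, and binding was not measured.

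The fibrillar collagens were not uniform. *Col1a1*, the main chain of type I collagen, ranked at 60.7, 59.2, 56.4 and 60.6 on the PGK12.1 controls and at 60.0 and 60.4 on those of WD44, and the difference of 1.0 in favour of WD44 had an interval for PGK12.1 minus WD44 of -5.1 to 3.1. *Col3a1*, the type III collagen of soft tissue, stood at 52.2, 48.6, 49.7 and 42.8 on the PGK12.1 controls and at 38.1 and 38.5 on those of WD44, with no overlap, and missed the threshold (interval of PGK12.1 minus WD44 3.4 to 16.6, adjusted p = 0.0529 from limma). *Col1a2*, *Col5a1* and *Col5a2* also missed it, with PGK12.1 minus WD44 at 5.9, 3.7 and -0.1. *Col12a1*, a fibril-associated collagen, went the other way, at 18.7 to 20.8 on the PGK12.1 controls and 44.4 and 42.9 on those of WD44 (difference 23.7, standard error 1.32, adjusted p = 0.00112 from limma). *Col12a1* and *Cav1* kept their call when any 1 control array was left out, with single RNAi controls only and on the *Kdm6a* RNAi arrays. The minimum level is a mean over all arrays, so a gene low in PGK12.1 can reach it through WD44. That mean was 0.132 for *Col12a1*, 0.163 for *Lox*, 0.102 for *S100a4* and 0.106 for *Prrx1*. With no minimum level these 4 genes kept their call (adjusted p = 0.00101, 0.00424, 0.0357 and 0.0351 from limma). In that setting 2 members ranked higher in PGK12.1 and 15 in WD44, against 1369 and 1559 of 19938 genes.

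The 3 collagen VI chains, which form beaded filaments around cells, ranked higher on all PGK12.1 controls than on those of WD44. *Col6a3* passed, at 42.2 to 45.8 in PGK12.1 and 35.3 and 34.9 in WD44 (PGK12.1 minus WD44 8.9, adjusted p = 0.014 from limma). Its call was lost without WD44 control 1 or 2 (adjusted p = 0.144 and 0.16) and with single RNAi controls only (0.101), and on the *Kdm6a* RNAi arrays the difference was 5.3 (0.135). *Col6a1* and *Col6a2* did not, with PGK12.1 minus WD44 at 4.2 and 5.5 (adjusted p = 0.199 and 0.146 from limma). Fibronectin (*Fn1*) ranked at 95.2 or higher on the 6 control arrays, and the fibulins *Fbln2* and *Fbln5* differed by -0.7 and 2.5 (PGK12.1 minus WD44) and did not pass.

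Among genes that finish or cut the matrix, lysyl oxidase (*Lox*) ranked at 21.1, 23.2, 18.7 and 26.5 on the PGK12.1 controls and at 52.2 and 46.5 on those of WD44, a difference of 27.0 (adjusted p = 0.00358 from limma, and 0.0528 without WD44 control 1). *Mmp2*, the gelatinase A gene, was 20.0 higher in WD44 and *Timp3*, a matrix-bound inhibitor of metalloproteinases, 16.7 higher (adjusted p = 0.00427 and 0.0469 from limma). *Mmp2* lost its call without WD44 control 2 (0.0708), and *Timp3* without PGK12.1 experiment 1 or 2 (0.0566 and 0.113) or WD44 control 1 or 2 (0.25 and 0.244). *Timp1*, a secreted inhibitor of the same family, was the member that ranked higher in PGK12.1 by the widest margin, at 89.7, 90.8, 90.5 and 95.8 against 82.7 and 80.0 (PGK12.1 minus WD44 10.4, adjusted p = 0.0268 from limma). *Timp1* missed the threshold without PGK12.1 experiment 1, 2 or 3 (adjusted p = 0.052, 0.0692 and 0.0502 from limma) and without WD44 control 1 or 2 (0.15 and 0.225), and on the *Kdm6a* RNAi arrays the difference was 5.2 (0.146). *Loxl1* and the heparan sulfate 6-O-endosulfatase gene *Sulf1* differed by 0.3 and -0.6 (PGK12.1 minus WD44) and did not pass.

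The surface and intracellular markers split. *Cav1*, which encodes the caveolar coat protein caveolin 1, had PGK12.1 ranks of 24.5, 23.8, 27.7 and 30.2 and WD44 ranks of 58.8 and 59.0, a difference of 32.3 (standard error 2.13, adjusted p = 0.00134 from limma). *S100a4*, also known as fibroblast-specific protein, was 11.9 higher in WD44, *Capg*, an actin-capping protein, 8.8 higher and *Prrx1* 6.0 higher (adjusted p = 0.0323, 0.0469 and 0.0365 from limma), and each of the 3 lost its call without PGK12.1 experiment 1 (0.0788, 0.0993 and 0.0971) and without WD44 control 1 (0.229, 0.3 and 0.303) or 2 (0.184, 0.205 and 0.168). *Capg* and *Prrx1* also lost it without PGK12.1 experiment 2 (0.118 and 0.105) or 3 (0.0925 and 0.0571). *Vim*, *Lgals1* and *S100a11* ranked at 91.3 or higher on all 6 control arrays and did not pass. Ranks so close to 100 leave little room for a difference, so this does not show equal levels. *Lgals1* lay at 91.3 to 98.2 on the PGK12.1 controls and at 99.6 and 99.5 on those of WD44. *S100a11* lay at 94.9 to 98.6 against 99.7 and 99.6, also without overlap. *Thy1* and *Pdgfrb*, both used to sort stromal cells, differed by 1.0 and 5.7 (PGK12.1 minus WD44) and did not pass either.

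**Figure D2:**
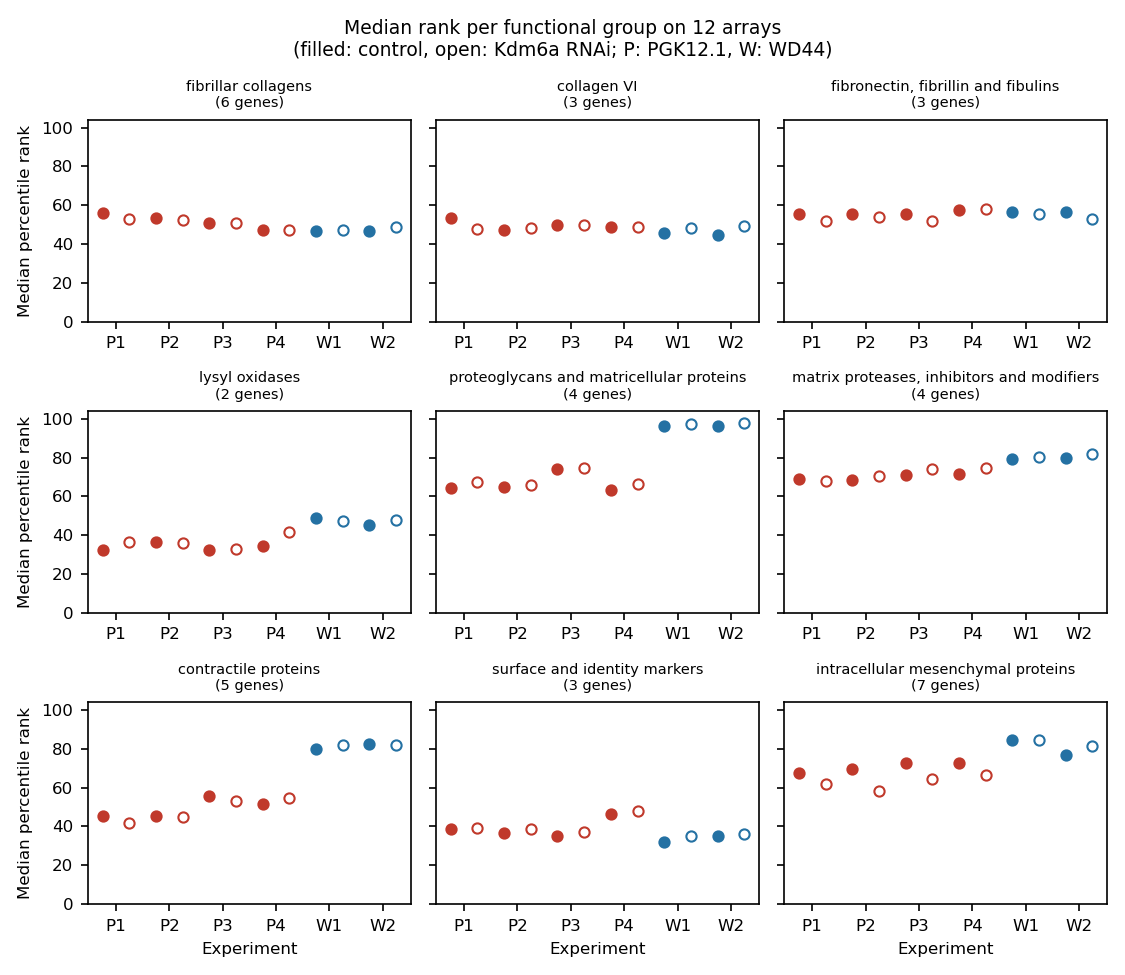
Median percentile rank (y axis, 0 to 100) of the tested genes of each functional group on the 12 arrays, with PGK12.1 experiments P1 to P4 in red, WD44 experiments W1 and W2 in blue, filled symbols for control and open symbols for *Kdm6a* RNAi. The contractile group lies between 45.3 and 55.5 on the PGK12.1 controls and at 79.7 and 82.4 on the WD44 controls. The intracellular group has a lower median on the RNAi array than on the control in each PGK12.1 pair. On the PGK12.1 arrays this median is the rank of *S100a6*, and *Vim*, *S100a4* and *Cav1* of the same group were not called after RNAi.

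The count of members that differed between the control arrays depended on single arrays. It was 4 without the control of WD44 experiment 1 and 3 without that of experiment 2. It was 12 without that of PGK12.1 experiment 1, 24 without that of PGK12.1 experiment 4 and 7 with single RNAi controls only. The calls over all 15309 genes moved as well. Those higher in PGK12.1 and in WD44 were 85 and 132 without WD44 control 1, and 66 and 111 without control 2. They were 608 and 770 without PGK12.1 control 1, 4288 and 3913 without control 4, and 169 and 280 with single RNAi controls only. PGK12.1 experiment 4, whose scale lay closest to that of WD44, was also set against WD44 on the deposited log2 values, a comparison chosen after the data were seen. It has 1 PGK12.1 array, so its values are given without a test, and the median of that array (8.21) lay above those of the WD44 controls (8.07 and 8.08). On this scale the WD44 controls were 7.57-fold higher for *Thbs1*, 7.52-fold for *Tagln*, 6.80-fold for *Ccn1*, 6.30-fold for *Acta2* and 3.52-fold for *Cnn1*, and 0.923-fold for *Col1a1*.

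Other markers moved with the line as well. Among 12 ES cell identity genes, *Zfp42* (REX1) ranked at 96.0, 95.9, 97.0 and 88.9 on the PGK12.1 controls and at 68.3 and 68.2 on those of WD44, and *Klf4* at 87.4 to 94.4 against 79.3 and 77.7 (PGK12.1 minus WD44 26.2 and 12.9, adjusted p = 0.0032 and 0.0171 from limma). The other 10 did not pass, and the summed level of the 12 genes was 78.2 to 105 times the array mean on the PGK12.1 controls and 66.9 and 69.3 on those of WD44. Of the trophoblast list, *Krt18* and *Krt7*, keratins of simple epithelia, ranked higher in WD44 (PGK12.1 minus WD44 -31.7 and -20.2, adjusted p = 0.0386 and 0.0243 from limma). The mesoderm and neuroectoderm lists held calls both ways, with the mesoderm genes *Mesp1* and *Tbx6* higher in PGK12.1 and *Eomes* higher in WD44 (6.6, 7.7 and -17.3, adjusted p = 0.0416, 0.0198 and 0.0144 from limma), and the neuroectoderm genes *Sox1* higher in PGK12.1 and *Nes* higher in WD44 (14.1 and -24.5, adjusted p = 0.026 and 0.00546 from limma). Their part in the differences between lines was not tested.

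Related lists outside the members are given against the same shares of all genes, 8.82% higher in PGK12.1 and 9.11% higher in WD44. Of 33 other matrix and fibroblast genes tested, 3 ranked higher in PGK12.1 and 7 higher in WD44, the latter including *Dcn*, the proteoglycan decorin (16.7 to 21.2 against 45.8 and 50.5), *Tnc*, tenascin C, *Timp2* and *Bmp1*, the protease that trims procollagen (PGK12.1 minus WD44 -30.3, -25.7, -25.7 and -24.8). Of 27 TGF-beta, SRF and YAP pathway genes, 5 ranked higher in WD44 and none in PGK12.1, among them *Tgfb2*, *Srf* and *Tead1* (PGK12.1 minus WD44 -22.8, -7.8 and -6.1, adjusted p = 0.00275, 0.0319 and 0.0334 from limma). Of 18 other cytoskeletal genes, *Cald1*, *Zyx*, *Tpm1* and *Myh9* ranked higher in WD44 (PGK12.1 minus WD44 -22.1, -20.1, -11.1 and -8.6) and none higher in PGK12.1. Of 15 mesenchymal transcription factors, *Tbx20*, *Runx1* and *Foxc1* ranked higher in WD44 and *Meox1* and *Zeb1* higher in PGK12.1. The counts of genes higher in PGK12.1 and in WD44 were 1 and 0 of 11 for primitive endoderm, 2 and 1 of 7 for mesoderm, 1 and 1 of 7 for neuroectoderm, 0 and 2 of 7 for trophoblast, 2 and 1 of 7 for endothelium, and 0 and 0 of 3 for macrophages.

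*Kdm6a* RNAi in PGK12.1 changed 6 of the 37 tested members by limma, of which 4 fell and 2 rose, against 2.1% of all genes that fell and 3.71% that rose (5.81% in either direction). The 4 that fell, *Capg*, *S100a6*, *Lgals1* and *S100a11*, were all intracellular proteins of the mesenchymal group, and the 2 that rose, *Loxl1* and *Sulf1*, act on the matrix. No collagen, contractile gene or defining feeder marker was called. At an unadjusted p under 0.05, 3 members were higher and 5 lower, against 13.5% and 9.18% of all genes. The median change of the tested members was -0.09, -0.02, -0.03 and 0.03 in the 4 experiments, and that of all genes tested was 0.01, 0.03, 0.02 and 0.00.

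*Capg* (chromosome 6, 72538282 to 72562983 in GRCm38.p6) had log2 values of 7.27, 7.39, 7.93 and 9.87 on the PGK12.1 controls and of 6.78, 6.77, 7.39 and 9.19 after *Kdm6a* RNAi. The value was lower in all 4 experiments, by changes of -0.49, -0.62, -0.54 and -0.68, on average -0.58 (standard error 0.0475, 95% interval -0.69 to -0.48, adjusted p = 0.00053 from limma), or a decrease of 33.2%. *Lgals1* (chromosome 15, 78926725 to 78930465), which encodes the sugar-binding protein galectin 1, went from 9.69, 9.80, 10.36 and 12.84 to 9.14, 9.11, 9.95 and 12.48. Its changes of -0.55, -0.69, -0.41 and -0.36 averaged -0.50 (standard error 0.0573, adjusted p = 0.00188 from limma), or a decrease of 29.4%.

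*S100a6* (chromosome 3, 90612894 to 90614414), which encodes the calcium-binding protein calcyclin, had log2 values of 7.63, 7.79, 8.58 and 10.14 on the controls and of 7.30, 7.06, 7.94 and 9.67 after RNAi. Its changes of -0.33, -0.73, -0.64 and -0.47 averaged -0.54 (standard error 0.073, adjusted p = 0.00432 from limma), or a decrease of 31.3%. *S100a11* (chromosome 3, 93520496 to 93526288), a calcium-binding protein of the same family, was measured by 2 probe sets and changed by -0.33, -0.23, -0.22 and -0.26, on average -0.26 (standard error 0.0445, adjusted p = 0.0104 from limma), or a decrease of 16.5%. Both of its probe sets passed, at -0.27 and -0.25. The third S100 gene of the group, *S100a4*, did not pass, with changes of 0.15, -0.20, 0.11 and 0.07.

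The stretches before *S100a6* and *S100a11* are shown because both genes, of 1 family and both on chromosome 3, fell in PGK12.1. They are RefSeq sequences of GRCm38.p6, chr3:90612644-90612893 and chr3:93520246-93520495, both on the plus strand and 5′ to 3′, with the same motifs in capitals.

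S100a6: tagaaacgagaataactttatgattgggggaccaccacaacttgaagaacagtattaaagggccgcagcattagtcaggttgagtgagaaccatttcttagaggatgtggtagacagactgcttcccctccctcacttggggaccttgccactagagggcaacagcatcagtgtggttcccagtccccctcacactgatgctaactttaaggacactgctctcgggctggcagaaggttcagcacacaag

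S100a11: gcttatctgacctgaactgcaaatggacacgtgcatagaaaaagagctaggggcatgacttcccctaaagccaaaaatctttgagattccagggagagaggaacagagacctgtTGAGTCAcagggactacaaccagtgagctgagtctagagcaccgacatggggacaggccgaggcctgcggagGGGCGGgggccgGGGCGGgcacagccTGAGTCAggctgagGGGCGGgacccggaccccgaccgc

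The *S100a11* stretch held 2 AP-1 sites, from 136 to 130 and from 38 to 32 bases before the gene, and 3 GC boxes. No letters of the 4 motifs were found in the *S100a6* window.

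*Loxl1* (chromosome 9, 58287723 to 58313212), a lysyl oxidase that acts on elastic fibres, had log2 values of 6.26, 6.46, 6.61 and 8.17 on the controls and of 6.62, 6.72, 6.69 and 8.48 after RNAi, higher in all 4 experiments. Its changes of 0.36, 0.26, 0.08 and 0.31 averaged 0.25 (standard error 0.052, adjusted p = 0.0234 from limma), or 19.1% more. The call of *Loxl1* was lost without PGK12.1 experiment 1, 2 or 4 (mean change 0.22, 0.25 and 0.23, adjusted p = 0.0821, 0.0845 and 0.0774 from limma) and without either WD44 experiment (adjusted p = 0.0518). *Sulf1* (chromosome 1, 12692197 to 12861192) changed by 0.18, 0.22, 0.28 and 0.22, on average 0.22 (standard error 0.0432, adjusted p = 0.0174 from limma), or 16.9% more. The call of *Sulf1* was lost without PGK12.1 experiment 2, 3 or 4 (adjusted p = 0.0664, 0.0619 and 0.0525 from limma). The 4 genes that fell kept their call when any single experiment was left out.

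**Figure D3:**
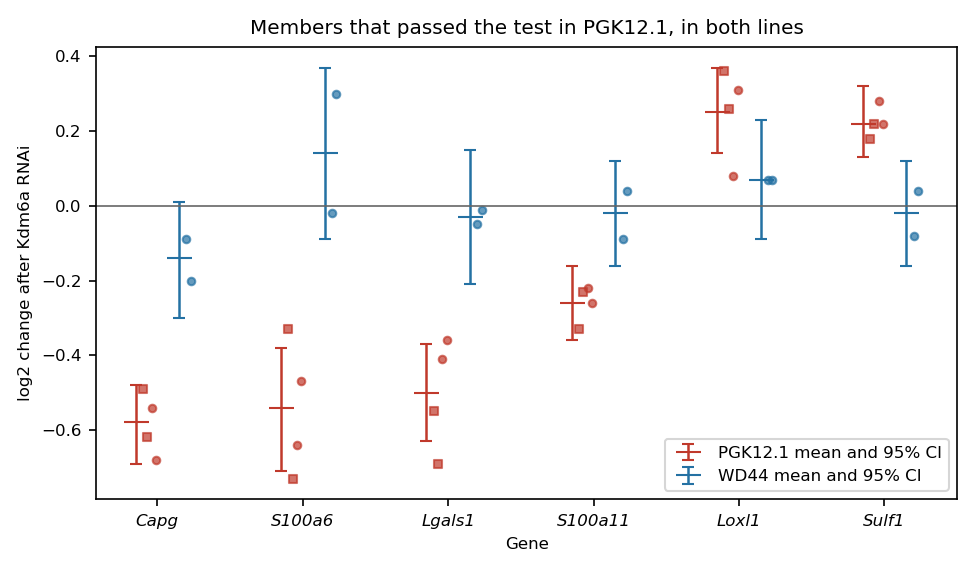
Log2 change after *Kdm6a* RNAi (y axis) of the 6 genes called in PGK12.1, with 1 point per experiment (squares double RNAi, discs single RNAi), PGK12.1 in red and WD44 in blue, and bars for the mean and 95% interval of the fit. *Capg*, *S100a6* and *Lgals1* lie at -0.33 or lower in all PGK12.1 experiments, and their WD44 points lie between -0.20 and 0.30.

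Members that did not pass in PGK12.1 had small or uneven changes. *Thbs1* had 0.29, 0.18, 0.03 and 0.46 (mean 0.24, adjusted p = 0.0668 from limma) and *Timp1* -0.11, -0.23, -0.17 and -0.21 (mean -0.18, adjusted p = 0.0591 from limma), each with the same sign in all 4 experiments. *Acta2* had -0.29, 0.00, 0.10 and 0.64, *Bgn* -0.40, -0.01, -0.01 and 0.56 and *Lox* -0.04, -0.25, 0.06 and 0.47, so that experiment 4 stood above the rest in all 3 genes. *Thy1* had -0.02, -0.04, -0.10 and -0.52, again with experiment 4 apart (mean -0.17, adjusted p = 0.226 from limma). In experiment 1, *Col1a1*, *Col3a1* and *Col6a2* had -0.20, -0.24 and -0.34, each lower than in the other 3 experiments. In all, 9 tested members lay below 0 in all 4 experiments, against 10.6% of all genes, and 3 above 0, against 16.3%.

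In WD44 no member was called by limma, nor was any other gene (0%). At an unadjusted p under 0.05, 13 members were higher and 1 lower after *Kdm6a* RNAi, against 8.84% and 7.23% of all genes, and no member passed with the trend and robust options of limma either. The 13 became 5 without WD44 experiment 1 and 4 without experiment 2. Over all genes tested, 1354 higher became 488 and 833. In 20 members both experiments lay above 0, against 31.3% of all genes, and in 5 both lay below 0, against 33.1%. The median change of the tested members was 0.06 and 0.14, that of all genes 0.01 and -0.02. *Thbs1* had the largest mean, with changes of 0.31 and 0.48 (mean 0.39, interval 0.18 to 0.61, adjusted p = 0.164 from limma). The 3 collagen VI genes had 0.37 and 0.14 (*Col6a1*), 0.20 and 0.28 (*Col6a2*) and 0.32 and 0.22 (*Col6a3*), and *Col3a1* had 0.21 and 0.26, with adjusted p from 0.196 to 0.263. *Bgn* went the other way, at -0.34 and -0.36 (adjusted p = 0.334 from limma). The precision for WD44 is limited by its 2 experiments, and its spread is shared with PGK12.1.

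**Figure D4:**
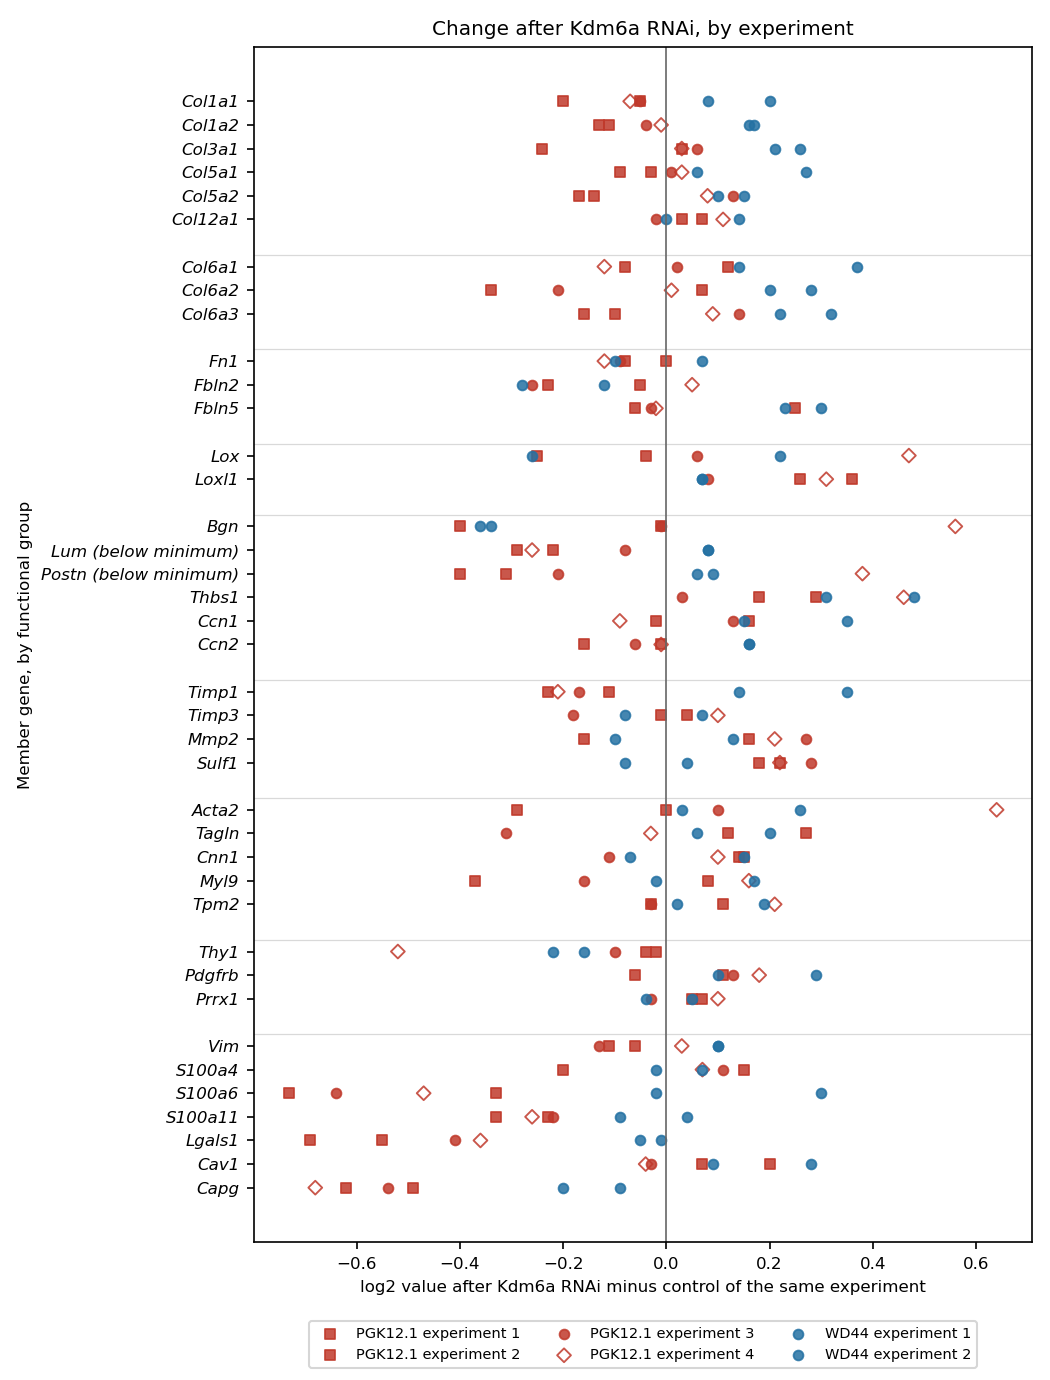
Log2 value after *Kdm6a* RNAi minus the control of the same experiment (x axis) for the 39 measured genes, 1 row per gene in functional groups, with red squares for PGK12.1 experiments 1 and 2, a red disc for experiment 3, an open diamond for experiment 4 and blue discs for WD44. *Capg*, *Lgals1* and *S100a6* lie furthest left in PGK12.1, and both WD44 points of *Col3a1* and of the 3 collagen VI genes lie right of 0.

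The difference between the lines was tested directly, as the change in PGK12.1 minus the change in WD44. No member was called by limma, and neither was any other gene (0%). At an unadjusted p under 0.05, 1 member had a higher and 13 a lower change in PGK12.1, against 11% and 10% of all genes. The 13 became 10 without WD44 experiment 1 and 6 without experiment 2. Over all genes tested, 1536 lower became 739 and 1075. The lowest adjusted p among members belonged to *S100a6* (difference -0.68, interval -0.97 to -0.40, adjusted p = 0.0843 from limma), *Capg* (-0.44, interval -0.62 to -0.25, 0.0853), *Timp1* (-0.43, interval -0.61 to -0.24, 0.0857) and *Lgals1* (-0.47, interval -0.69 to -0.25, 0.0867). With a minimum level raised to 0.25 of the array mean, 4 of 26 members passed, all with a lower change in PGK12.1. Of all 10539 genes in that setting, 178 passed with a higher and 89 with a lower change. With the trend and robust options 5 of 37 members passed, all lower, against 394 higher and 160 lower of 15309 genes. *S100a6*, *Capg* and *Lgals1* passed under both settings, with adjusted p from limma of 0.0351, 0.0351 and 0.0383 under the stricter minimum. The lines have different controls, and 3 of the 4 residual degrees of freedom come from PGK12.1.

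Within PGK12.1, the change under double RNAi minus that under single RNAi was not called for any member by limma, nor for any other gene (0%). At an unadjusted p under 0.05, 1 member had a higher and 5 a lower change under double RNAi, against 4.78% and 4.1% of all genes. *Acta2* had the largest difference, -0.52 (interval -0.92 to -0.11, adjusted p = 0.514 from limma). Of the 4 genes that fell, *Lgals1* differed by -0.24 (interval -0.43 to -0.04, adjusted p = 0.515 from limma), 1 of the 5 lower members. *Capg*, *S100a6* and *S100a11* differed by 0.05, 0.02 and -0.04, with intervals of -0.16 to 0.27, -0.32 to 0.37 and -0.24 to 0.16. When each pair of experiments was given its own effect, 3 members passed under double RNAi and 2 under single RNAi, all of them lower. Of all 15309 genes, 344 rose and 207 fell under double RNAi, and 55 rose and 63 fell under single RNAi.

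The summed level of the 9 feeder markers was lower or equal after *Kdm6a* RNAi in PGK12.1, with 1.94 to 1.75, 1.71 to 1.67, 1.48 to 1.48 and 2.27 to 2.20 times the array mean in experiments 1 to 4, and higher in WD44, with 1.84 to 1.98 and 1.91 to 2.09. The summed level of the 12 ES cell identity genes went from 93.9 to 94.2, 93.2 to 91.1, 105 to 103 and 78.2 to 77.8 in PGK12.1 and from 69.3 to 68.7 and 66.9 to 65.9 in WD44. The part of feeder content in the members' changes was not tested.

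Among related genes outside the members, *Kdm6a* RNAi in PGK12.1 lowered *Sparc*, a collagen-binding matricellular protein (-0.44, -0.48, -0.40 and -0.51, mean -0.46, adjusted p = 0.00114 from limma), and *Serpinh1*, the collagen chaperone HSP47 (-0.46, -0.29, -0.27 and -0.51, mean -0.38, adjusted p = 0.00442), while *Plod2*, a lysyl hydroxylase of collagen, rose (mean 0.26, adjusted p = 0.0289). These were the 3 called of 33 other matrix and fibroblast genes, and the counts of this and the following lists stand against 3.71% of all genes that rose and 2.1% that fell. Of 27 TGF-beta, SRF and YAP pathway genes, *Skil*, a repressor of SMAD signalling, and *Ltbp4*, which tethers latent TGF-beta, rose (mean 0.28 and 0.20, adjusted p = 0.00593 and 0.0384 from limma) and none fell. The muscle intermediate filament gene *Des* fell among 18 cytoskeletal genes (mean -0.26, adjusted p = 0.0367), and *Zeb1*, a factor of epithelial-mesenchymal transition, rose among 15 mesenchymal factors (mean 0.22, adjusted p = 0.0231). Of the cell identity lists, *Utf1* fell among 12 ES cell genes and *Lamb1*, a laminin chain, among 11 primitive endoderm genes (mean -0.22 and -0.27, adjusted p = 0.0248 and 0.0156 from limma). No gene was called in PGK12.1 among 7 mesoderm, 7 neuroectoderm, 7 trophoblast, 7 endothelial and 3 macrophage genes, and none of any list in WD44.

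Outside all lists, the genes whose change over the 6 experiments ran most like the members' median change were *Mir193a*, *Btnl2*, *Ccn5*, *Cdc42ep5* and *Gdf3* (Pearson's r = 0.988, 0.986, 0.986, 0.985 and 0.984 over 6 experiments). Both changes of an experiment come from the same pair of arrays, and the values are a description.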

How the data were processed

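Values were 12 array columns of the deposited table. Per the submitters' processing notes, the authors used Affymetrix Expression Console with RMA and deposited log2 values. The sources used here give no versions and do not say which arrays shared a normalization. The values were used without further normalization. Of 35556 probe sets, 21789 had 1 gene in the platform annotation. Those with several genes (1621) or none listed (12146) were left unnamed. Probe sets of a gene were averaged (999 genes), symbols were updated through the RefSeq table of GRCm38.p6 (19919 genes matched), and 15309 genes reached a mean of 0.1 of the array mean over all arrays.

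Changes were fitted with limma 3.58.1 in R 4.3.3 over all 12 arrays, with the experiment as a block, 1 effect per line (or for double and single RNAi apart), eBayes moderation and Benjamini-Hochberg adjustment over all genes tested at 0.05. Degrees of freedom were 4 (residual) plus 5.66 (prior) with 1 effect per line. The fit with double and single RNAi apart had fewer residual degrees of freedom. The block follows the shared numbers of control and RNAi arrays in the labels and the paired tests of the methods. Arrays of 1 experiment deviated together from their group means, with correlations of 0.785, 0.79, 0.895 and 0.959 (PGK12.1) and 0.187 (WD44), which hold the different scales of the arrays. Control arrays were compared by limma on percentile ranks (4 plus 1.97 degrees of freedom). Intervals are 95% intervals, and the scripts were tested on simulated data. The number of arrays limits the precision.

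The members and the 12 lists (177 entries, 167 measured) were chosen with earlier results of these data known. The lists were defining feeder markers, other matrix and fibroblast genes, TGF-beta, SRF and YAP pathway genes, cytoskeletal genes, mesenchymal transcription factors, and markers of ES cells, primitive endoderm, mesoderm, neuroectoderm, trophoblast, endothelium and macrophages. Genes named are members called in any comparison or with the highest, widest or largest values, the defining feeder markers, up to 4 called genes per list and comparison, and the 5 genes most like the members' median change. Alternatives were other minimum levels, single probe sets, trend and robust options, further normalizations, each experiment left out, no block and a paired t-test. Others were separate effects for double and single RNAi, and single RNAi controls or *Kdm6a* RNAi arrays only for the ranks.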

Additional observations from a re-analysis of the deposited data

Results flagged for a closer look

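The 37 tested members gave 74 groups of 4 PGK12.1 values, the rank on the controls and the change. In 8 groups, 1 experiment lay far from the other 3. The limit used would flag about 5% of groups if the 4 values were independent and varied alike. The 4 experiments came from different sets of arrays, and the share over all genes was not computed, so no excess can be read from the 8. In experiment 1 the change of *Col1a1* was -0.20 against -0.07 to -0.05 in the others, that of *Col3a1* was -0.24 against 0.03 to 0.06, and that of *Fbln5* was 0.25 against -0.06 to -0.02. *Col6a1* ranked at 56.2 on the control of experiment 1 against 49.9 to 50.9. In experiment 3 the control rank of *Tagln* was 64.8 against 45.4 to 47.7. In experiment 4 the change of *Thy1* was -0.52 against -0.10 to -0.02, and the control ranks of *Fbln2* and *Lgals1* were 57.3 against 55.3 to 55.6 and 98.2 against 91.3 to 91.9.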

How the results depend on the processing

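The 6 members called in PGK12.1 became 0 without the replicate block. The methods' paired t-test called 0 members after adjustment, and 7 before it (2 higher and 5 lower). Of all 15309 genes it called 0 after adjustment, and 1517 higher and 927 lower before it. With separate double and single RNAi effects in 1 fit of all 12 arrays, 3 members passed under double and 2 under single RNAi. Over all genes, 568 higher and 322 lower calls became 344 and 207 under double RNAi and 55 and 63 under single RNAi. When 1 experiment was left out, 4 to 6 members passed, against 198 to 396 higher and 152 to 211 lower calls over all genes. Without the block, the different scales of the arrays enter the spread, and no gene reached even an unadjusted p under 0.05. *Loxl1* passed in 5 of 15 alternatives and *Capg* and *Lgals1* in 14 of 16. The members called for the difference between lines were 0, and 0 to 0 when 1 experiment was left out. They were 4 with a minimum level of 0.25 of the array mean and 5 with the trend and robust options. Other genes passed in these settings as well. The counts for WD44 and for double against single RNAi were 0 in each alternative run, also at 0 to 0 with 1 experiment left out. The 19 members called between control arrays became 7 with single RNAi controls only and 3 to 24 when 1 array was left out. The calls over all genes moved in these settings as well. With PGK12.1 experiment 4 only, on the deposited log2 values, *Prrx1* had 0.07, a sign that cannot be read, since it rests on 1 PGK12.1 array whose median lay further above those of WD44 than that. The causes of these shifts, other than the array scales and fewer arrays, were not tested. No other value of a named member that had passed the test turned its sign. Ranked among all probe sets instead of named genes, the members' median rank was 55.1 to 60.7 on the PGK12.1 controls and 65.4 and 65.8 on the WD44 controls. Low signal limits *Lum* and *Postn*, and on the PGK12.1 arrays also *Col12a1*, *Lox*, *S100a4* and *Prrx1*. RMA gives no call of presence.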
